A study of Mus musculus with 2 samples.

Results

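Cones, the photoreceptors of daylight and colour vision, numbered 1071 of the 30943 cells profiled by droplet ScRNA-seq of P30 mouse retina. They are the cells that the deposited cell table names Cone, and all of them lay in cluster 7 of that table, which held no cell of another type. The Ptbp1-Ctrl library came from 1 Chx10-Cre mouse with both Ptbp1 alleles intact and gave 632 cones among 16421 cells. The Ptbp1-KO library came from 1 Chx10-Cre;Ptbp1lox/lox mouse and gave 439 cones among 14522 cells. Both animals were 30 days old, and both carried the Chx10-Cre transgene, which expresses Cre recombinase in retinal progenitors. In the Ptbp1-KO mouse, cones and the other retinal cells descending from a recombined progenitor therefore lack the floxed promoter and first exon of Ptbp1. The product of Ptbp1 binds RNA and holds back exons used in neurons, and the comparison asked whether its early loss leaves the mature cones as they are in the control. With 1 library per genotype there is no replicate check, no test between genotypes was run, and every interval below is a 95% interval of counting error that leaves out differences between animals, dissociations and libraries.

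The animals are described as female in the study's methods. Both libraries, however, held the Y-linked transcripts Ddx3y, Eif2s3y, Kdm5d and Uty in cones, with 65 to 306 UMIs (unique molecular identifiers, each standing for 1 captured RNA molecule) per gene in Ptbp1-Ctrl and 64 to 282 in the other library. Xist had 0 UMIs in the cones of either library and 5 and 6 UMIs in all cells of Ptbp1-Ctrl and Ptbp1-KO. The libraries shared 63 cell barcodes in all and 0 among cones. Cones of Ptbp1-Ctrl summed to 1745145 UMIs with a median of 2660 per cell, and those of Ptbp1-KO to 1425527 with a median of 3179, so the Ptbp1-KO cones were the deeper ones. The median mitochondrial share of their UMIs was 3.98% and 3.46%.

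In a cone, light isomerises the retinal bound to an opsin, the opsin activates the transducin Gnat2, transducin releases the phosphodiesterase Pde6c from its inhibitory subunit Pde6h, and the fall in cGMP closes the Cnga3 and Cngb3 channel. Arr3, the cone arrestin, binds the phosphorylated opsin and ends the response, while guanylate cyclases and their calcium-sensing activators restore cGMP. Mouse cones carry a short-wave opsin (Opn1sw) and a middle-wave opsin (Opn1mw), often in the same cell, with Opn1sw prevailing in ventral retina and Opn1mw in dorsal retina. Crx and Otx2 are homeodomain factors of photoreceptors that bind motifs with a TAAT core, and thyroid hormone receptor beta (Thrb) is required for Opn1mw.

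The promoters of 3 cone genes are shown because the results below turn on them: the opsins set the classes of cones, and Arr3 differed both with opsin class and between the libraries. Each stretch is the 250 bases before a RefSeq start site in the GRCm38.p6 table, read 5′ to 3′ along the gene's strand, with TAATCC and its variant ending in T (TAATCT), on either strand, in capitals. That of Opn1sw lies at chr6:29380514-29380763 (minus strand), that of Opn1mw at chrX:74127216-74127465 (plus strand) and that of Arr3 at chrX:100605247-100605496 (plus strand).
Opn1sw: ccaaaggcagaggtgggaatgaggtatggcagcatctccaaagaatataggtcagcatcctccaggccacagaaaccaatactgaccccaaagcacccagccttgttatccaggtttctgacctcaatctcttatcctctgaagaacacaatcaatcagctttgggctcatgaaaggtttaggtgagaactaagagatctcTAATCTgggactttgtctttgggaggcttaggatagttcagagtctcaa
Opn1mw: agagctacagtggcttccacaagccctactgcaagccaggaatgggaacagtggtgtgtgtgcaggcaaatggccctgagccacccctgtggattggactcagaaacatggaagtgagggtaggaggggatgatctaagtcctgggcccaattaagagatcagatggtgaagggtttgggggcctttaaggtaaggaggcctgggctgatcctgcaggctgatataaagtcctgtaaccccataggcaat
Arr3: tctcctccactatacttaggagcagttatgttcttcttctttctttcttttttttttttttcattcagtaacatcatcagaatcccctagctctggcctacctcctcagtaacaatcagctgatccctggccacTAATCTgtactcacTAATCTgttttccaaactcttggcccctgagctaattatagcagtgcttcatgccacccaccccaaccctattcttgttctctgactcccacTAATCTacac
The Opn1sw promoter held TAATCT starting 49 bases before the start site, the Arr3 promoter held it 3 times, starting 116, 102 and 10 bases before, and the Opn1mw window held neither motif. Of 32851 RefSeq promoters of the same length, 6.25% held TAATCC on either strand, 7.31% held TAATCT and 12.8% held at least 1 of them. Among the 11 cone phototransduction genes, 7 matched an entry in the table and 3 of those held a motif, the other one being Gnat2. These matches are letters in a window and not measured sites of binding.

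The deposited name was first checked against the 6 cone markers, which were among the genes the cells had been clustered on, so the comparison with other types is a description. Every cone had UMIs of at least 2 of the 6 markers, and 87.7% of Ptbp1-Ctrl cones and 88.6% of Ptbp1-KO cones had at least 5. Levels are given as CPM, for which the UMIs of all cells of a type in a library were added up and scaled to a total of 1000000. Opn1sw stood at 8472 CPM in cones and 36.1 in rods of Ptbp1-Ctrl, and at 8403 and 35.9 CPM in Ptbp1-KO. Opn1mw stood at 3142 and 9.51 CPM in Ptbp1-Ctrl and at 3244 and 10.1 CPM in Ptbp1-KO. Arr3 had 7101 CPM in Ptbp1-Ctrl cones and 8371 in Ptbp1-KO cones, against 40.6 and 53.1 in rods. Each marker was highest in cones of both libraries, and of rods, BC, AC and MG it was rods that held the least.

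**Figure D1:**
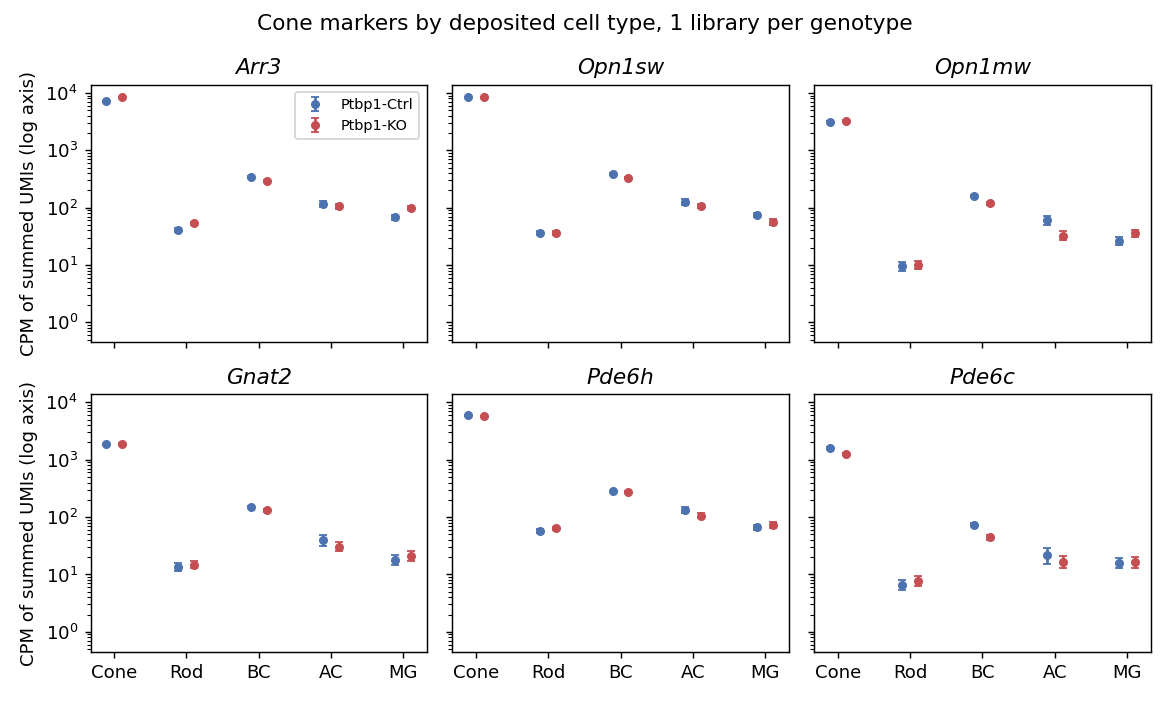
Level of the 6 cone markers (CPM of summed UMIs, log axis) in cones, rods, bipolar cells (BC), amacrine cells (AC) and Müller glia (MG), with 1 point per library and bars for the 95% counting interval. Cones are highest in every panel, and BC hold more of each marker than rods do (Opn1sw 383 CPM in BC and 36.1 in rods of Ptbp1-Ctrl).

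At 1000 UMIs per cell, a depth to which each cell was thinned so that shares can be compared, 97.1% of Ptbp1-Ctrl cones (95.4 to 98.3) and 97.2% of Ptbp1-KO cones (95.1 to 98.5) held an Arr3 UMI, against 3.68% and 4.65% of rods. The median depth before thinning was 1088 and 1288 UMIs in rods, and thinning left out 43 and 14 cones. An Opn1sw UMI was seen in 76.4% and 83.3% of thinned cones but in 2.44% and 3.48% of thinned rods, and an Opn1mw UMI in 72.7% and 80% of cones but in 0.898% and 1.07% of rods. Without thinning the shares of cones were 82.1% and 88.6% for Opn1sw and 79.3% and 87.9% for Opn1mw. The shares in cones were thus far above those in rods, which do not use these opsins. In BC of Ptbp1-Ctrl 9.49% of cells held the 3745 Opn1sw UMIs counted there.

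Cones also carried RNA of rods. Of 10 genes that rods use and cones do not, such as Gnat1 (rod transducin) and Pde6a (a catalytic subunit of rod phosphodiesterase), the median level in cones was 23.9% (Ptbp1-Ctrl) and 24.8% (Ptbp1-KO) of the rod level. For 9 of the 10 genes the share lay between 20.8% and 28.7%, and for Gngt1, the gamma subunit of rod transducin, it was 59.1% and 66.1%. Gnat1 itself had 1352 CPM in cones and 5362 in rods of Ptbp1-Ctrl. In BC, AC and MG of both libraries the same median ran from 13.8% to 17.5%, so cones held more rod RNA than those types did. Pde6g, the inhibitory subunit of rod phosphodiesterase, stood at 67.0% and 69.8% of its rod level, and rod arrestin Sag at 55.7% and 52.5%. In BC, AC and MG, Pde6g was at 15.9% to 19.1% and Sag at 12.1% to 17.9%. Gngt1, Pde6g and Sag thus stood apart from the other rod genes in cones. Whether cones make this RNA themselves was not tested. Of markers of other types, the 8 BC markers summed to 315 and 307 CPM in Ptbp1-Ctrl and Ptbp1-KO (3.79% and 3.40% of their level in BC), the 7 MG markers to 227 and 232 CPM (0.933% and 0.919% of MG) and the 7 AC markers to 43.0 and 50.5 CPM, with Tfap2a at 0 in both libraries. The 4 vessel markers summed to 530 and 495 CPM, of which Vtn, the gene of vitronectin, gave 522 and 484. Vtn was at 731 and 669 CPM in rods too, and the other vessel markers stood at 0 to 6.31 CPM in cones. The part of this RNA in the differences below was not tested beyond the alternatives that leave such cones out.

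The genes that set cones apart from every other type were taken as those at least 4-fold higher in cones than in the highest of rods, BC, AC and MG, in both libraries. Of 1957 genes with at least 100 CPM in cones, 30 met this (1.53%). The 5 with the largest excess were opsin, phosphodiesterase and arrestin genes, namely Opn1sw, Pde6c, Pde6h, Arr3 and Opn1mw. Gnat2 (1854 and 1853 CPM in Ptbp1-Ctrl and Ptbp1-KO cones, 13.6 and 14.8 in rods) and Gngt2, the gamma subunit of cone transducin (3634 and 3801 CPM in cones, 44.3 and 54.4 in rods), followed. Cngb3, the modulatory subunit of the cone channel, had 2406 and 2429 CPM in cones and 6.6 and 12.0 in rods. Members of the list also included genes with no part in phototransduction. Mylk, a myosin light chain kinase, had 774 and 727 CPM in cones and 85 and 86 in rods, and Klhl4 had 104 and 105 CPM in cones and 0.690 and 1.17 in rods. Gulo, which encodes the last enzyme of vitamin C synthesis, had 150 and 140 CPM in cones and 12.0 and 15.6 in rods. The noncoding gene C230014O12Rik ranked above Gnat2, with 126 and 159 CPM in cones and at most 7.62 CPM in any of the other types.

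Transcription factors were compared with rods next. Rxrg, a retinoid X receptor of cones, had 64.2 and 65.9 CPM in cones of Ptbp1-Ctrl and Ptbp1-KO and 0.767 and 1.38 in rods, and Sall3, a zinc finger factor, had 97.4 and 79.3 CPM in cones and 0.997 and 1.03 in rods. Thrb was less selective, with 1217 and 1303 CPM in cones and 821 and 892 in rods. Crx was close in both types (561 and 554 CPM in cones, 634 and 591 in rods). Nrl and Nr2e3, which direct the rod programme, were at 375 and 309 CPM and at 218 and 172 CPM in cones, that is 22.2% to 26.0% of their level in rods, within the range of the other rod genes.

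Cones were next described by their opsin UMIs. Among Ptbp1-Ctrl cones a median of 18 Opn1sw UMIs was counted (from 0 to 140) and a median of 5 Opn1mw UMIs (0 to 50), and among Ptbp1-KO cones the medians were 19 (0 to 104) and 9 (0 to 44). UMIs of both opsins were found in 61.6% of Ptbp1-Ctrl cones (57.6 to 65.4) and 77.4% of Ptbp1-KO cones (73.2 to 81.3). At 1000 UMIs per cell these shares were 49.2% (45.1 to 53.4) and 65.2% (60.4 to 69.7), so the share of cones with both opsins was higher in Ptbp1-KO at equal depth too. Only Opn1sw was seen in 20.6% and 11.2% of cones, only Opn1mw in 17.7% and 10.5%, and neither in 1 and 4 cells.

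Cones with at least 5 opsin UMIs, of which there were 605 (Ptbp1-Ctrl) and 421 (Ptbp1-KO), were placed by the share of their opsin UMIs that came from Opn1sw. A share of 80% or more was called S-dominant, 20% or less M-dominant, and the rest mixed. These are ranges of a per-cell value and not cell types, and 20.2% of Ptbp1-Ctrl and 27.6% of Ptbp1-KO cones lay within 10 points of the upper limit and 7.44% and 9.74% within 10 points of the lower one. S-dominant cones were 54.0% of Ptbp1-Ctrl (49.98 to 58.1) and 41.3% of Ptbp1-KO (36.6 to 46.2). M-dominant cones were 26.3% (22.8 to 30.0) and 19.2% (15.6 to 23.3). Mixed cones were 19.7% of Ptbp1-Ctrl (16.6 to 23.1) and 39.4% of Ptbp1-KO (34.7 to 44.3). The mixed range was thus fuller in the Ptbp1-KO library, and both ends were emptier. Thinned to 1000 UMIs, mixed cones made up 17.8% (14.6 to 21.4) and 40.5% (35.4 to 45.7), so the gap was as wide at equal depth.

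**Figure D2:**
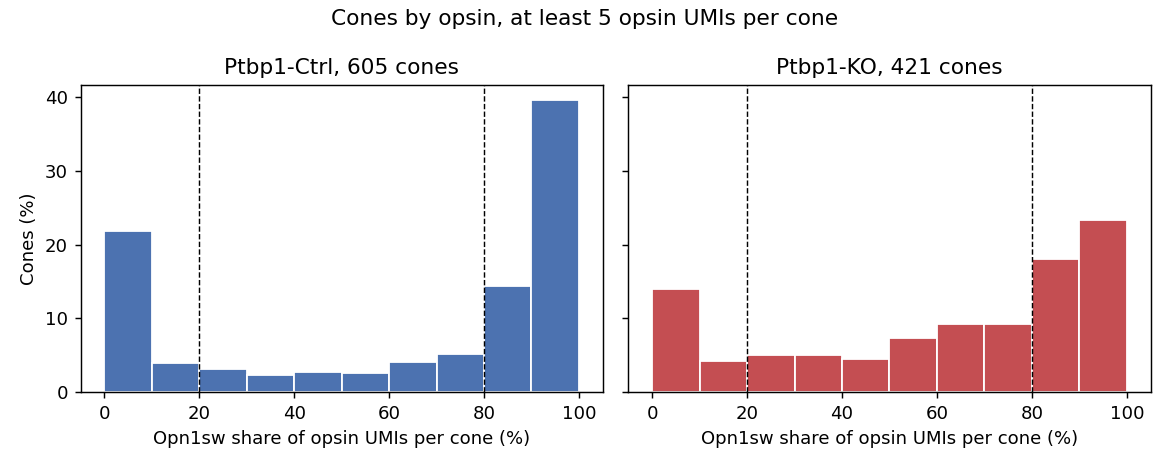
Distribution of the Opn1sw share of opsin UMIs per cone (x axis, percent, in bins of 10 points) as the percent of cones with at least 5 opsin UMIs (y axis), for 605 Ptbp1-Ctrl and 421 Ptbp1-KO cones, with dashed lines at the limits of 20% and 80%. The bin nearest to Opn1sw alone holds 39.7% of Ptbp1-Ctrl and 23.3% of Ptbp1-KO cones, the bin nearest to Opn1mw alone holds 21.8% and 14.0%, and the bins between are fuller in Ptbp1-KO.

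The opsin UMIs behind the classes were compared next. S-dominant cones had a median of 39 Opn1sw and 2 Opn1mw UMIs in Ptbp1-Ctrl and 50.5 and 4 in Ptbp1-KO. M-dominant cones had a median of 0 Opn1sw and 17 Opn1mw UMIs in both libraries. The Ptbp1-KO cones were the deeper ones, and at 1000 UMIs per cell the S-dominant medians were 14 and 15 Opn1sw UMIs. As summed UMIs, Opn1sw in S-dominant cones came to 13861 and 14047 CPM, a difference within counting error (log2 0.02, −0.02 to 0.06). Mixed cones had 15 Opn1sw and 12 Opn1mw UMIs in Ptbp1-Ctrl and 15 and 13 in Ptbp1-KO. Summed over all cones, the opsin levels of the libraries differed by less than counting error, at a log2 ratio of Ptbp1-KO over Ptbp1-Ctrl of −0.01 for Opn1sw (−0.05 to 0.02) and 0.05 for Opn1mw (−0.01 to 0.10). Within S-dominant cones Opn1mw was higher in Ptbp1-KO (955 and 1363 CPM), and within M-dominant cones it was lower (6436 and 5352 CPM). Rod RNA did not separate the classes, taken as the share of the summed UMIs of each class. The 10 rod genes made up 1.18%, 1.18% and 1.30% in S-dominant, mixed and M-dominant cones of Ptbp1-Ctrl. In Ptbp1-KO the shares were 1.26%, 1.15% and 1.31%.

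Genes other than the opsins also differed between S-dominant and M-dominant cones, and the contrast could be read in each library separately. Of 3991 genes with a mean of at least 50 CPM, 44 were at least 1.5-fold higher in S-dominant cones of both libraries (1.1%) and 51 at least 1.5-fold higher in M-dominant cones of both (1.28%). Hopx, a small homeodomain protein that does not bind DNA, was the leading gene of S-dominant cones, with 862 CPM in S-dominant and 12.6 in M-dominant cones of Ptbp1-Ctrl and with 981 and 30.5 CPM in Ptbp1-KO. The log2 ratios were 6.09 (4.96 to 7.54) and 5.01 (4.02 to 6.23). App, the amyloid precursor protein, had 152 and 4.21 CPM in Ptbp1-Ctrl and 202 and 11.4 in Ptbp1-KO. With 2 and 3 UMIs in M-dominant cones, its log2 ratio was 5.17 (3.29 to 8.23) in the first library and 4.14 (2.56 to 6.44) in the second. Hopx and App were thus nearly absent from the M-dominant cones of both libraries. Ccdc136, a coiled-coil protein gene, was the most abundant of the 10 leading S-dominant genes, with 1339 and 225 CPM in Ptbp1-Ctrl and 1321 and 408 in Ptbp1-KO. Ccdc136 (chr6:29396309-29426994, plus strand, mm10) is a neighbour of Opn1sw (chr6:29376671-29388468, minus strand). Tenm3, a teneurin adhesion protein, had log2 ratios of 2.70 (1.77 to 3.79) and 2.41 (1.21 to 3.90). Cabp5, a calcium-binding protein that is also a BC marker, had 76.6 and 10.5 CPM in Ptbp1-Ctrl and 99.3 and 26.7 in Ptbp1-KO. The other genes among the 10 were 5430419D17Rik, Syndig1l, Gm12239, 1110017D15Rik and Rtl8a.

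In M-dominant cones the leading gene was Cdh12, a type II cadherin, with 7.77 CPM in S-dominant and 236 in M-dominant cones of Ptbp1-Ctrl and with 6.73 and 316 CPM in Ptbp1-KO. Its log2 ratios of S-dominant over M-dominant were −4.92 (−6.27 to −3.83) and −5.55 (−7.46 to −4.14). Nr2f2, an orphan nuclear receptor known as COUP-TFII, had 5.55 and 107 CPM in Ptbp1-Ctrl and 3.37 and 91.4 in Ptbp1-KO. Its log2 ratio in Ptbp1-KO rests on 2 UMIs in S-dominant cones (−4.76, −7.89 to −2.75). Cdh12 and Nr2f2 were thus near 0 in S-dominant cones of both libraries. Mdga2, an immunoglobulin-family adhesion protein, had 44.4 and 495 CPM in Ptbp1-Ctrl and 92.5 and 510.5 in Ptbp1-KO. Smug1, a DNA glycosylase, had 63.3 and 379 CPM and then 89.2 and 491 CPM. Epha5, an ephrin receptor of graded retinal expression, had 46.6 and 171 CPM in Ptbp1-Ctrl and 38.7 and 248 in Ptbp1-KO. Lhx4, a LIM homeodomain factor, was the weakest of the 10, at −1.44 (−2.32 to −0.59) and −1.18 (−2.06 to −0.30). Zfhx4, Grip1, Gm44532 and B130024G19Rik made up the rest.

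**Figure D3:**
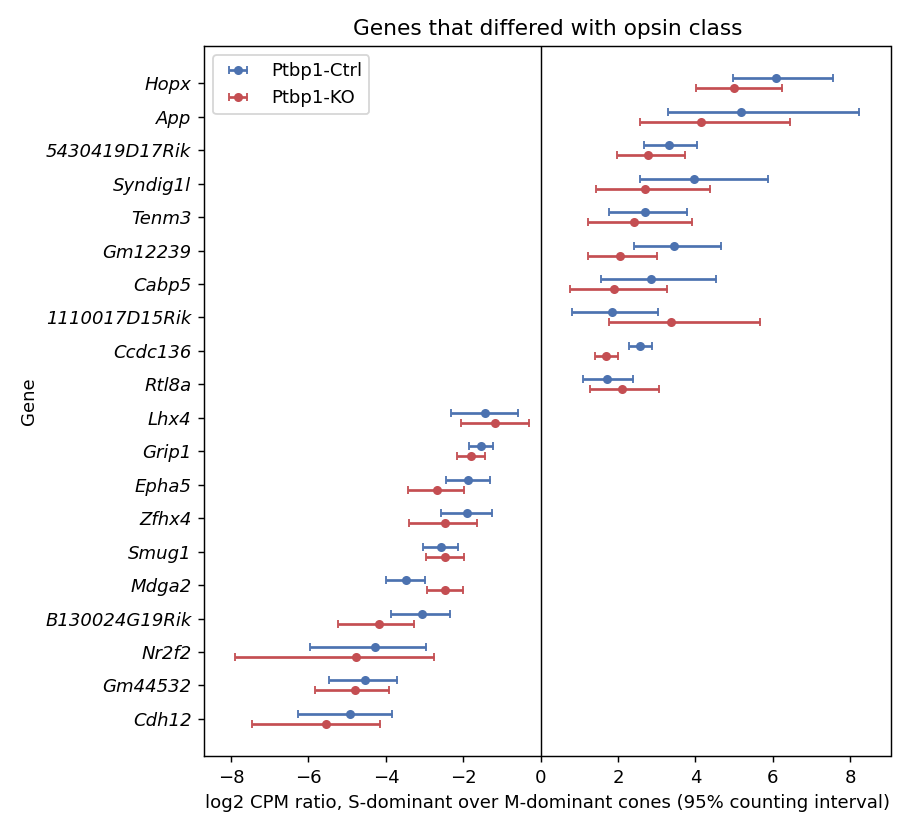
Log2 CPM ratio of S-dominant over M-dominant cones for the 10 genes most higher in each class, opsins left out, with 1 point per library and bars for the 95% counting interval. Hopx is at 6.09 and 5.01 and Cdh12 at −4.92 and −5.55 in Ptbp1-Ctrl and Ptbp1-KO, and no interval of the 20 genes reaches 0 in either library.

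Among the genes of phototransduction the classes differed by smaller factors. Arr3 was lower in S-dominant than in M-dominant cones, with 5258 and 9565 CPM in Ptbp1-Ctrl (log2 −0.86, −0.92 to −0.80) and 6607 and 10701 in Ptbp1-KO (log2 −0.70, −0.77 to −0.63). Guca1a, which activates guanylate cyclase when calcium falls, was higher in S-dominant cones, with 5150.2 and 3515 CPM in Ptbp1-Ctrl and 4561 and 2994 in Ptbp1-KO. Pde6h, Gnb3 and Gngt2 were also higher in S-dominant cones of both libraries, by log2 ratios of 0.40 and 0.33, 0.38 and 0.34, and 0.30 and 0.54. Gnat2 lay at −0.14 (−0.26 to −0.03) and 0.05 (−0.11 to 0.21), so its direction was not shared. Thrb was lower in S-dominant cones, at −0.36 (−0.50 to −0.21) and −0.60 (−0.78 to −0.41). Of the other genes listed for opsin patterning, Rxrg was at 0.76 (0.07 to 1.51) and 0.68 (−0.23 to 1.69), Rora at −0.09 and −0.13, and Vax2, a ventral homeodomain factor, had 22 and 3 UMIs in S-dominant and M-dominant cones of Ptbp1-Ctrl and 11 and 0 in Ptbp1-KO. Tbx5, a dorsal T-box factor, had 0 UMIs in these classes of either library, and Nr2f1 had 0 in Ptbp1-Ctrl and 2 and 1 in Ptbp1-KO. Samd7, a transcriptional repressor expressed in photoreceptors, was lower in S-dominant cones of Ptbp1-Ctrl (48.8 and 192 CPM) and was at 52.2 and 80 CPM in Ptbp1-KO, where the interval reached 0 (log2 −0.62, −1.46 to 0.26).

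Before the libraries were compared, the targeted gene was read in cones. Ptbp1 (chr10:79854427-79864771, plus strand, mm10) had 24 UMIs in Ptbp1-Ctrl cones, or 13.8 CPM, and 1 UMI in Ptbp1-KO cones, or 0.701 CPM. The log2 ratio was −4.29 (−9.65 to −1.68), which followed the label of each library. By opsin class the counts were 12, 7 and 5 UMIs in S-dominant, mixed and M-dominant cones of Ptbp1-Ctrl and 0, 0 and 1 in Ptbp1-KO. Ptbp2, the neuronal paralog, had 147 and 133 CPM in cones (log2 −0.15, −0.43 to 0.13), a difference not detectable at this depth. The cone share of all cells was 3.85% in Ptbp1-Ctrl (3.56 to 4.15) and 3.02% in Ptbp1-KO (2.75 to 3.31), a ratio of 0.785 (0.694 to 0.889). Among cells other than rods the shares were 9.93% and 8.41%.

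Of 3997 genes with a mean of at least 50 CPM and at least 50 UMIs in cones, 56 were at least 1.5-fold higher in Ptbp1-KO (1.4%) and 47 at least 1.5-fold lower (1.18%). With TMM scaling, which sets the libraries against each other by a trimmed mean of ratios, the counts were 45 and 63. The median log2 ratio over all 3997 was −0.02. Of the 11 cone phototransduction genes none passed 1.5-fold in either direction, and their median log2 ratio was 0.01, a sign that turned under other scalings (−0.02 with TMM scaling). Gnat2 was level between the libraries (log2 −0.00, −0.08 to 0.07), as was Cngb3 (0.01, −0.05 to 0.08). Arr3 was the member furthest above 0 beyond counting error, at 0.24 (0.20 to 0.27), and Pde6c the one furthest below, from 1612 to 1270.4 CPM at −0.34 (−0.43 to −0.26). Cnga3, with 174 and 168 UMIs, was at 0.24 (−0.07 to 0.56). Of the 11 genes 6 were higher and 5 lower, with 3 above and 2 below 0 beyond counting error. Over all 3997 genes, 8.91% lay above and 10.8% below 0 beyond counting error. The list therefore held members on either side of 0 with the median close to that of all genes.

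The 11 genes of shutoff and calcium feedback leaned to lower values in Ptbp1-KO, with 9 lower, 6 of them beyond counting error, and a median log2 ratio of −0.12. Over all 3997 genes, 45.5% were higher, 10.8% lay below 0 beyond counting error and the median was −0.02. None of the 11 passed 1.5-fold. Rcvrn, the calcium sensor recoverin, had 2451 and 2052 CPM (log2 −0.26, −0.32 to −0.19), Guca1a 4448 and 3821 CPM (−0.22, −0.27 to −0.17) and Guca1b 472 and 401 CPM (−0.23, −0.39 to −0.08). In rods the median of the same list was −0.17, with Guca1a at −0.22 and Rcvrn at −0.17, so the rods of these libraries lay on the same side. Rgs9, which speeds the shutoff of transducin, was at 0.02 (−0.09 to 0.13). Pde6c, Rcvrn, Guca1a and Arr3 were listed because the study's text names them for these same cells, so the choice of these genes was not independent of the data. The study's text gives Pde6c, Rcvrn and Guca1a as raised and Arr3 as lowered in mutant cones. The ratios of summed UMIs here have the opposite sign for each of them, and the reason was not tested. Of them, Pde6c, Guca1a and Rcvrn were below 0 beyond counting error in each opsin class. Pde6c was at −0.41, −0.32 and −0.27 in S-dominant, mixed and M-dominant cones, Guca1a at −0.18, −0.22 and −0.23 and Rcvrn at −0.16, −0.37 and −0.27. Arr3 was at 0.33 (0.27 to 0.39) in S-dominant, 0.03 (−0.04 to 0.09) in mixed and 0.16 (0.09 to 0.23) in M-dominant cones.

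**Figure D4:**
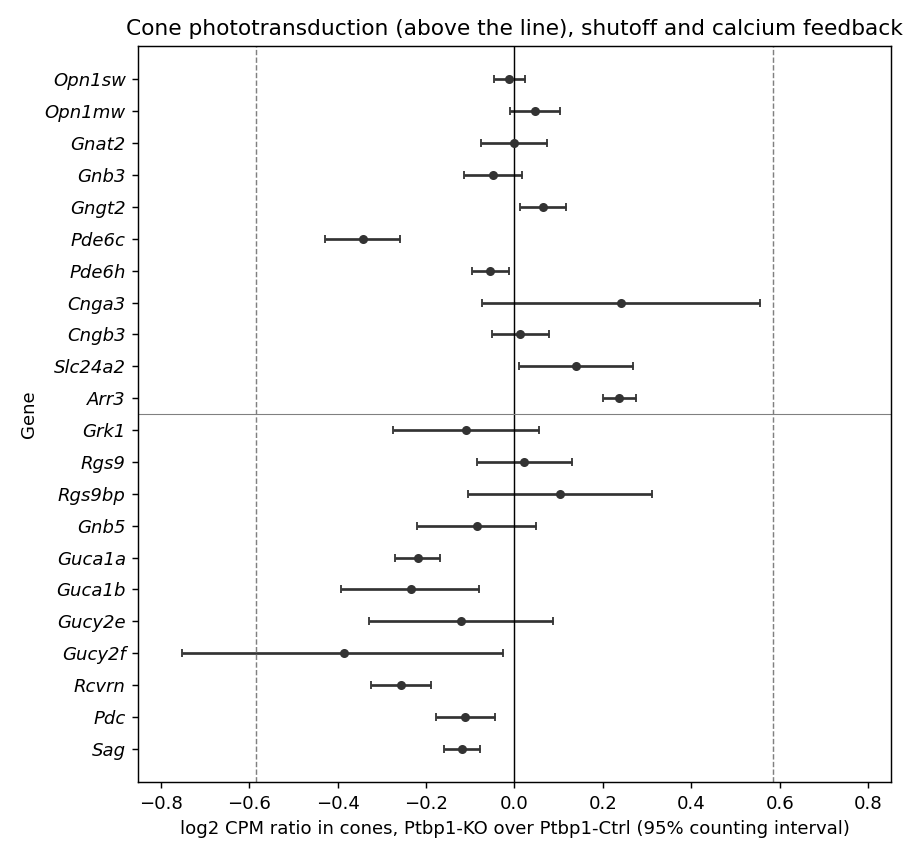
Log2 CPM ratio in cones, Ptbp1-KO over Ptbp1-Ctrl, for 11 cone phototransduction genes (above the line) and 11 genes of shutoff and calcium feedback, with bars for the 95% counting interval and dashed lines at 1.5-fold. Every point lies between the dashed lines, with Arr3 (0.24) to the right and Pde6c (−0.34), Rcvrn (−0.26) and Guca1a (−0.22) to the left of 0.

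The remaining lists were described by their counts. Their members needed only 20 UMIs, so some fall short of the minimum of the 3997 genes. No share of all genes past 1.5-fold is given at 20 UMIs. Of 15 photoreceptor transcription factors none passed 1.5-fold, 5 were higher and 10 lower, with a median of −0.09. Otx2 was highest among them, with 182 and 239.9 CPM (log2 0.40, 0.18 to 0.63), and Rorb, an orphan receptor of photoreceptor precursors, was at −0.30 (−0.45 to −0.15). Of 14 outer segment and retinoid genes none passed 1.5-fold (median −0.07), and Impg2, a proteoglycan of the matrix between photoreceptors, was the highest, with 525 and 728 CPM (log2 0.47, 0.34 to 0.60). Of 6 ion channel genes, 1 was at least 1.5-fold lower: Kcnj14, an inward rectifier potassium channel, had 57.3 and 30.9 CPM (log2 −0.89, −1.44 to −0.37), and in rods 222 and 147 CPM. Kcnj14 falls short of the minimum of the 3997 genes, so their share of 1.18% lower is not a background for it. Of 18 synapse genes, Lrit3 and Bsn were at least 1.5-fold lower. Lrit3 is among the 3997 genes, of which 1.18% were called lower, and Bsn falls short of their minimum. Lrit3, a leucine-rich protein of the photoreceptor terminal that organises the receptors of ON bipolar cells, had 309 and 148 CPM (log2 −1.06, −1.30 to −0.83). Lrit3 was also lower in rods (−0.50), BC (−0.85) and AC (−1.35) and level in MG (−0.01, −0.33 to 0.31). Bsn, the active zone protein Bassoon, rested on 55 and 29 UMIs (−0.63, −1.33 to 0.04). Cplx4, a complexin of ribbon synapses, was higher, at 676 and 878 CPM (log2 0.38, 0.26 to 0.49). The synapse median was −0.03.

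Of 17 glycolysis genes 14 were lower in Ptbp1-KO cones, 8 of them beyond counting error (10.8% of all 3997 genes), with a median of −0.19. Only Pgk1, phosphoglycerate kinase, passed 1.5-fold, with 195 and 117 CPM (log2 −0.74, −1.01 to −0.47). Hk2, the hexokinase of photoreceptors, was the 1 member above 0 beyond counting error, at 0.17 (0.04 to 0.30). Rods lay on the same side, with 13 of 17 genes lower beyond counting error (25.2% of all 3855 genes tested in rods) and a median of −0.28. Of the 12 genes of dissociation stress, 10 had the 20 UMIs set as a minimum, 5 of those were higher and 5 lower, 1 was past 1.5-fold upward and 2 downward, no interval excluded 0, and the median was 0.01. Of 7 opsin patterning genes 5 had enough UMIs, with a median of 0.06. Thrb was at 0.10 (0.01 to 0.19). Vax2 passed 1.5-fold downward on 29 and 15 UMIs (−0.66, −1.66 to 0.29), too few for the minimum of the 3997 genes. The 10 rod genes had a median of −0.13 in cones and −0.11 in rods.

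Among the 3997 genes past the minimum, which leaves out Ptbp1 itself, the furthest from 0 in cones was Diaph2 (chrX:129749742-130465834, plus strand, mm10), a formin that nucleates actin filaments. It had 99.7 CPM (174 UMIs) in Ptbp1-Ctrl cones and 1224 CPM (1745 UMIs) in Ptbp1-KO cones, a log2 ratio of 3.62 (3.39 to 3.85). The other types did not show this size: Diaph2 was at 0.21 (0.11 to 0.31) in rods, 0.50 in BC, 0.14 in AC and 0.31 in MG, with 54.7 to 104 CPM in Ptbp1-Ctrl and 60.4 to 127 in Ptbp1-KO. A Diaph2 UMI was seen in 20.4% of Ptbp1-Ctrl cones and 91.6% of Ptbp1-KO cones, and at 1000 UMIs per cell in 8.49% (6.37 to 11.0) and 68.0% (63.3 to 72.4), against 8.50% and 10.2% of rods. The excess was found in each opsin class, with ratios of 3.59 (3.27 to 3.92) in S-dominant, 3.82 (3.27 to 4.42) in mixed and 3.76 (3.32 to 4.24) in M-dominant cones.

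Gm31615, a predicted gene with no entry in the annotation used for positions, was the third in rank, with 100.3 CPM in Ptbp1-Ctrl and 432 in Ptbp1-KO cones (log2 2.11, 1.86 to 2.36) and with 1.84 and 2.55 CPM in rods. It was at 1.66 (1.35 to 1.98) in S-dominant and 3.29 (2.58 to 4.08) in M-dominant cones, whose intervals do not overlap. Car8, a carbonic anhydrase relative without enzyme activity, had 44.1 and 111 CPM in cones (log2 1.33, 0.93 to 1.74) and 8.51 and 9.59 in rods. In rods the interval of Gm31615 (0.47, −0.31 to 1.28, on 24 and 37 UMIs) and that of Car8 (0.17, −0.20 to 0.54) reached 0. Gm31615 was also higher in the BC (0.61, 0.48 to 0.74) and MG (1.25, 0.68 to 1.84) of Ptbp1-KO, and Car8 in its BC (0.13, 0.06 to 0.19) and MG (0.44, 0.06 to 0.83). Abhd14b, an alpha/beta hydrolase, differed from them in rods, with 40.1 and 224 CPM in cones (log2 2.48, 2.11 to 2.88) and 32.4 and 200.4 in rods (2.63, 2.48 to 2.78). Abhd14b was also higher in BC (1.34) and AC (1.27) but lower in MG (−0.33, −0.58 to −0.08). On chromosome 9 it lies from 106447459 to 106452923, beside Rpl29 (106429454 to 106431568), a ribosomal protein gene that was lower in cones (log2 −1.13) and in rods (−1.15). Abcd4, a lysosomal transporter used for cobalamin, had 28.1 and 84.2 CPM in cones (log2 1.58, 1.09 to 2.09). It was at 1.03 in rods, 1.26 in BC, 0.72 in AC and 1.22 in MG. Rgs22, Enam, Cdr1os, Uckl1os, Ptprn, Fam189a1, Lynx1 and Gm48677 were between 0.83 and 1.32 in cones, and so were Gm10800 and Gm10801, near-identical copies whose counts cannot be told apart with confidence. In rods, BC, AC and MG, Uckl1os was between 0.77 and 1.06, Gm10800 between 0.55 and 1.01 and Gm10801 between 0.48 and 0.95.

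On the lower side, Gm47283, annotated on the Y chromosome, had 1799 and 316 CPM in cones (log2 −2.51, −2.65 to −2.36) and was between −2.53 and −2.16 in rods, BC, AC and MG. Cox7b, a subunit of cytochrome c oxidase, had 652 and 286 CPM in cones and was between −1.37 and −1.18 in the 4 other types. Gm47283 and Cox7b were therefore lower in each of the 5 types of the Ptbp1-KO library that were compared. Alk, a receptor tyrosine kinase of neurons, had 128 CPM in Ptbp1-Ctrl cones and 62.4 in Ptbp1-KO cones (log2 −1.04, −1.41 to −0.68), whereas in rods it had 7.75 and 10.9 CPM (0.49, 0.12 to 0.87). Syne1, the nuclear envelope protein nesprin-1, had 156 and 64.5 CPM in cones (log2 −1.27, −1.63 to −0.93) and was at −0.69 in rods and 0.24 in BC. Dbp, a clock output transcription factor, had 80.2 and 42.8 CPM in cones (log2 −0.91, −1.37 to −0.46) and was at −0.04 in rods. Cdk6, a cell cycle kinase, was at −0.78 (−1.14 to −0.44) in cones and at −1.67 in rods. Gm10260, Snhg3, Garem1, Abhd17b, Thyn1, Ccdc24 and B4galt1 were between −1.61 and −0.80. Of these, Gm10260 (−1.35 to −1.09) and Snhg3 (−1.24 to −0.72) were lower in rods, BC, AC and MG too.

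**Figure D5:**
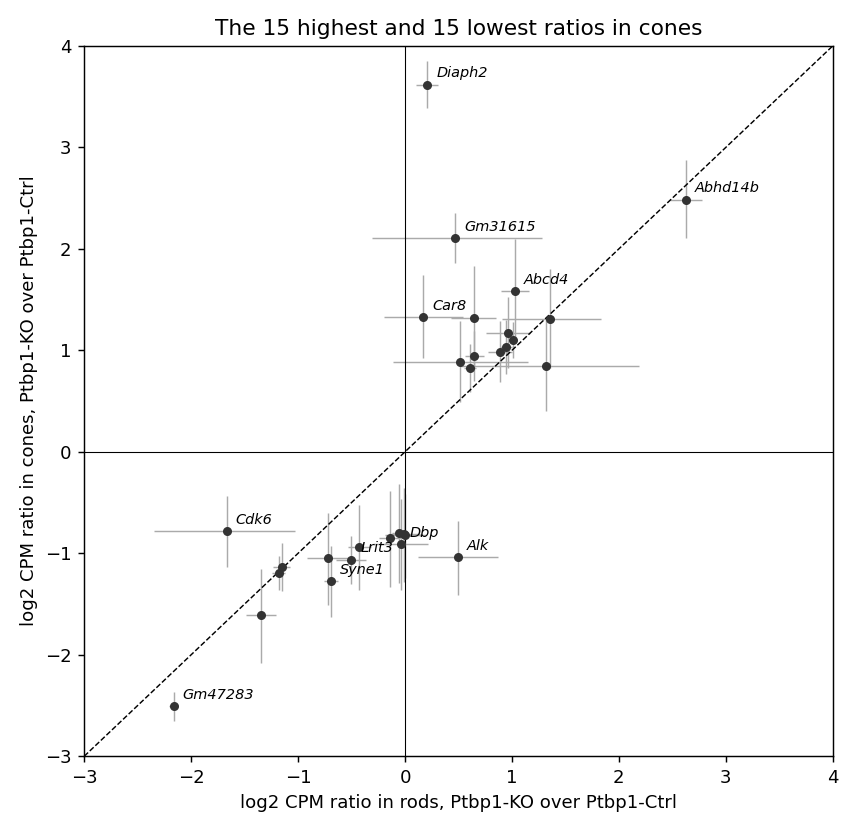
Log2 CPM ratio of Ptbp1-KO over Ptbp1-Ctrl in cones (y axis) and in rods (x axis) for the 15 genes highest and the 15 lowest in cones, with bars for the 95% counting interval and a dashed line where both are equal. Diaph2 lies at 3.62 in cones and 0.21 in rods, Abhd14b lies near the line at 2.48 and 2.63, and Alk is the gene with the ratio below 0 in cones and an interval above 0 in rods.

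The cone ratio was set against the rod ratio gene by gene. Apart from Diaph2, Gm31615 and Car8, the differences furthest above 0 were those of Gm9869 and Lrp2, and they came from rods: Gm9869 had 60.2 and 61.0 CPM in cones and 7.59 and 1.59 in rods. The 5 differences furthest below 0 were Tcea3, Alk, Zfp804a, Klhl33 and Lrfn2. Tcea3, a transcription elongation factor, had 60.7 and 74.4 CPM in cones (log2 0.29, −0.11 to 0.69) and 2.84 and 24.1 in rods (3.09, 2.60 to 3.62). Lrfn2, a synaptic adhesion protein enriched in cones, had 318 and 449.7 CPM in cones and 4.83 and 18.8 in rods. In 4 of these 5 genes the distance between the types was thus set mainly by rods. The Ptbp1-KO level in rods remained below that of cones in these 4 genes. In Alk the distance was set mainly by the cones, which were lower. Zfp804a, 1 of the 4, was also lower in cones (log2 −0.27, −0.50 to −0.04) and higher in rods (1.21, 0.71 to 1.73).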

How the data were processed

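Retinal cells of 1 Chx10-Cre and 1 Chx10-Cre;Ptbp1lox/lox mouse were dissociated with papain and profiled with 10x 3′ chemistry. Per the labels and the study's methods, the authors made UMI counts per gene and cell with Cell Ranger 7.0.1 on mm10, and filtered, clustered and named the cells with Seurat 4. The table of deposited counts holds 25778 genes. The deposited cell table gives each cell's library, cluster, type and percent of mitochondrial UMIs, and 2 further columns of it were not used. UMIs were summed by type and library. Ratios carry exact conditional binomial, levels exact Poisson and shares exact Clopper-Pearson intervals at 95%, which cover counting error only. With 1 library per genotype no test was run. Between the libraries, genes needed a mean of 50 CPM and 50 UMIs, while members of the gene lists needed 20 UMIs. The contrast of opsin classes took a mean of 50 CPM, and that of cones with other types 100 CPM in cones of both libraries. A call was 1.5-fold (4-fold for cones over the highest other type). For named genes, the rule took any gene of the lists, the 15 highest and 15 lowest ratios of Ptbp1-KO over Ptbp1-Ctrl, the 20 leading cone genes, the 10 leading genes of each opsin class and the 5 largest cone-minus-rod differences on each side. No doublet caller was run, and cones with markers of other types were left out as an alternative. The members and gene lists were chosen with earlier results of these data known. Intervals and ratios were tested on simulated data. Python 3.11.15, NumPy 2.4.6, SciPy 1.17.1, pandas 2.3.3 and Matplotlib 3.10.9 were used.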

Additional observations from a re-analysis of the deposited data

Results flagged for a closer look

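Alk was flagged because its ratio of Ptbp1-KO over Ptbp1-Ctrl went in opposite directions in the 2 photoreceptor types. In cones it was −1.04 (128 and 62.4 CPM) and in rods 0.49 (7.75 and 10.9 CPM) on the log2 scale, so cones minus rods came to −1.53. The difference itself was not tested, since each type had 1 library per genotype. Zfp804a, which was not flagged, also went in opposite directions, at −0.27 in cones and 1.21 in rods.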

How the results depend on the processing

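How many genes passed 1.5-fold between the libraries depended on the settings. Against 56 higher and 47 lower, thinning to 1000 UMIs gave 194 and 200, subtraction of free RNA 203 and 264, leaving out cones with markers of other types 101 and 113, weighing every cell the same 86 and 82, a minimum of 200 CPM 8 and 5, and a minimum of 20 CPM 256 and 200. Thinning and leaving out cones also leave fewer UMIs per gene. Gngt2, at 0.06, turned to −0.11 when thinned, −0.030 without cones with markers of other types, −0.070 with every cell weighing the same and −0.063 in M-dominant cones only, and Pde6h, at −0.06, turned to 0.035 in M-dominant cones only (a setting chosen after seeing the data). The cause was not tested. Rod RNA in cones was 19.4% and 19.6% of the rod level in Ptbp1-Ctrl and Ptbp1-KO without cones with markers of other types, and 20.6% in Ptbp1-Ctrl when thinned. With a minimum of 50 CPM, 58 genes were 4-fold higher in cones. With class limits of 90% and 10%, S-dominant cones were 39.7% and 23.3%, mixed 37.9% and 62.7% and M-dominant 22.5% and 14.0% of Ptbp1-Ctrl and Ptbp1-KO. Mixed cones were 16.5% and 34.1% with 1 UMI of each opsin subtracted, and S-dominant cones 58.8% of Ptbp1-Ctrl when thinned, so the mixed share stayed higher in Ptbp1-KO in these settings. Genes higher in S-dominant and M-dominant cones numbered 7 and 12 with a minimum of 200 CPM and 111 and 200 when thinned. Of the values recomputed for single genes under these and the remaining settings, 373 stayed within the counting interval of the reported value and 71 left it, beside the 5 changes of sign given above. Subtraction of free RNA gave no median for 6 of the gene lists. No paired analysis was possible because each genotype has 1 library, from its own animal.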
